A study of Mus musculus with 56 samples.

Results

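The genes described here are 8 that are enriched in pyramidal neurons of the hippocampal fields CA1 to CA3: Fibcd1, Wfs1, Pou3f1, Neurod6, Mpped1, Bok, Man1a and Spink8. They were followed in hippocampal RNA of 56 male NMRI mice older than 12 weeks, with 1 Illumina MouseRef-8 v2 bead array per mouse. A gene was measured where at least 1 of its probes had a detection p under 0.05, that is a signal above the negative control probes, on at least 6 of the 56 arrays. By this rule 6 of the 8 genes were measured, among 9893 genes in all. Values are log2 signals after quantile normalisation, so a difference of 1 is a doubling, and they are compared within a probe only.

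The mice fell into 4 groups. Epileptic mice had received pilocarpine (300 mg/kg, intraperitoneal, after N-methylscopolamine), which sets off status epilepticus followed by spontaneous recurrent seizures. They were then given, by daily oral gavage, vehicle (17 mice), PLX3397 at 3 mg/kg (18 mice) or PLX3397 at 30 mg/kg (15 mice), while 6 healthy mice without pilocarpine received vehicle and are called naive. PLX3397 is a kinase inhibitor that blocks the CSF1 receptor of microglia and macrophages. The sample labels give 7 days of dosing, whereas the design text of the series and the methods of the study give 14 days for the arrays. No naive mouse received PLX3397, so the action of the compound on these genes was seen only in epileptic tissue. The comparisons ask which pyramidal neuron genes were altered in epilepsy, and which of them lay nearer to the naive level under PLX3397, and by how much.

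Pyramidal neurons are the excitatory output cells of the hippocampal fields CA1, CA2 and CA3, and each field expresses its own set of transcription factors, receptors and secretory proteins. In temporal lobe epilepsy and in the pilocarpine model, cell loss in CA1 and CA3 is a classical part of hippocampal damage, whereas dentate granule cells are more resistant. In whole tissue RNA, fewer pyramidal cells and less RNA per cell cannot be told apart, and the arrays do not show which cells carried a signal.

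Among epileptic mice given vehicle, 4 of the 6 measured genes were lower than in naive mice: Fibcd1, Pou3f1, Mpped1 and Wfs1. Neither Spink8 nor Bok passed the test. Over all genes, 49% passed in this comparison, 26.5% lower and 22.6% higher (limma, adjusted p under 0.05), so a lowered gene was common in this tissue. The split depended on the scaling: 2619 genes were lower and 2232 higher, against 3630 and 1291 with arrays scaled to a common median. The median log2 difference was -0.83 over the 6 genes and -0.01 over all 9893.

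Fibcd1, which encodes a membrane receptor with a fibrinogen-like domain that binds acetylated sugars such as chitin, had log2 signals of 9.20, 10.35 and 10.87 (lowest, median and highest) in epileptic vehicle mice, against 11.93, 12.05 and 12.17 in naive mice. All 17 epileptic vehicle mice lay below the lowest naive mouse. The log2 difference was -1.73 (SE 0.20, limma adjusted p = 2.17e-10), a level 0.302 times that of naive mice, and in the order of all 9893 genes from the most lowered it had rank 2.

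Pou3f1 encodes a POU homeodomain transcription factor that is used as a marker of CA1. Its log2 signal was 8.77, 9.52 and 10.05 (lowest, median and highest) in epileptic vehicle mice, against 10.12, 10.41 and 10.49 in naive mice. The groups did not overlap. How many of all genes kept groups apart in this way was not counted, here or in the dose comparisons. This is a log2 difference of -0.95 (SE 0.16, limma adjusted p = 9.52e-07).

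Mpped1, a brain-expressed gene whose product holds a metallophosphoesterase domain, gave 9.63, 10.37 and 10.82 (lowest, median and highest log2 signal) in epileptic vehicle mice, against 11.07, 11.18 and 11.30 in naive mice, again without overlap. Mpped1 differed by -0.86 on the log2 scale (SE 0.10, limma adjusted p = 7.23e-10).

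Wfs1 encodes wolframin, a membrane protein of the endoplasmic reticulum, and is a widely used label of CA1 pyramidal cells. Its log2 signal was 8.67, 9.25 and 10.38 (lowest, median and highest) in epileptic vehicle mice, against 9.81, 10.02 and 10.29 in naive mice. All mice but 1 kept the groups apart: 16 of 17 epileptic vehicle mice lay below the lowest naive mouse and epileptic vehicle replicate 6 lay above the highest. Wfs1 differed by -0.80 on the log2 scale (SE 0.16, limma adjusted p = 2.68e-05).

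Spink8, a Kazal-type serine peptidase inhibitor gene, behaved otherwise. Its log2 signal was 6.80, 9.83 and 10.58 (lowest, median and highest) in epileptic vehicle mice, against 8.58, 9.59 and 10.07 in naive mice. Epileptic vehicle mice lay on both sides of the naive range, 6 above its highest value and 3 below its lowest. The log2 difference of -0.05 had a 95% interval of -0.85 to 0.74 (limma adjusted p = 0.926). In each epileptic group 1 mouse had a Spink8 signal that was not above background (vehicle replicate 3, 3 mg/kg replicate 7 and 30 mg/kg replicate 13), so the lowest values are bounds.

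Bok, a gene of the Bcl-2 family of cell death regulators, was read by 2 probes. The brighter one gave 9.63, 10.80 and 11.02 (lowest, median and highest log2 signal) in epileptic vehicle mice, against 10.20, 10.62 and 10.68 in naive mice. Of the 17 epileptic vehicle mice, 11 lay above the naive range and 2 below it. This gave a log2 difference of 0.12 (95% interval -0.26 to 0.50, limma adjusted p = 0.638) for this probe. The dimmer probe gave 0.23 (limma adjusted p = 0.108 over the 14058 probes kept).

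The remaining members gave no usable level. Neurod6, a basic helix-loop-helix transcription factor of excitatory forebrain neurons, was detected on 0 of 56 arrays, naive mice included, with log2 signals of 6.73 to 6.92. Man1a, a Golgi mannosidase that trims N-glycans, was detected on 4 arrays, those of 3 naive mice and 1 mouse at 30 mg/kg, with log2 signals of 6.80 to 7.17. The arrays cannot tell a low RNA level from a probe that reads its transcript poorly, so no fold is given for either gene.

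**Figure D1:**
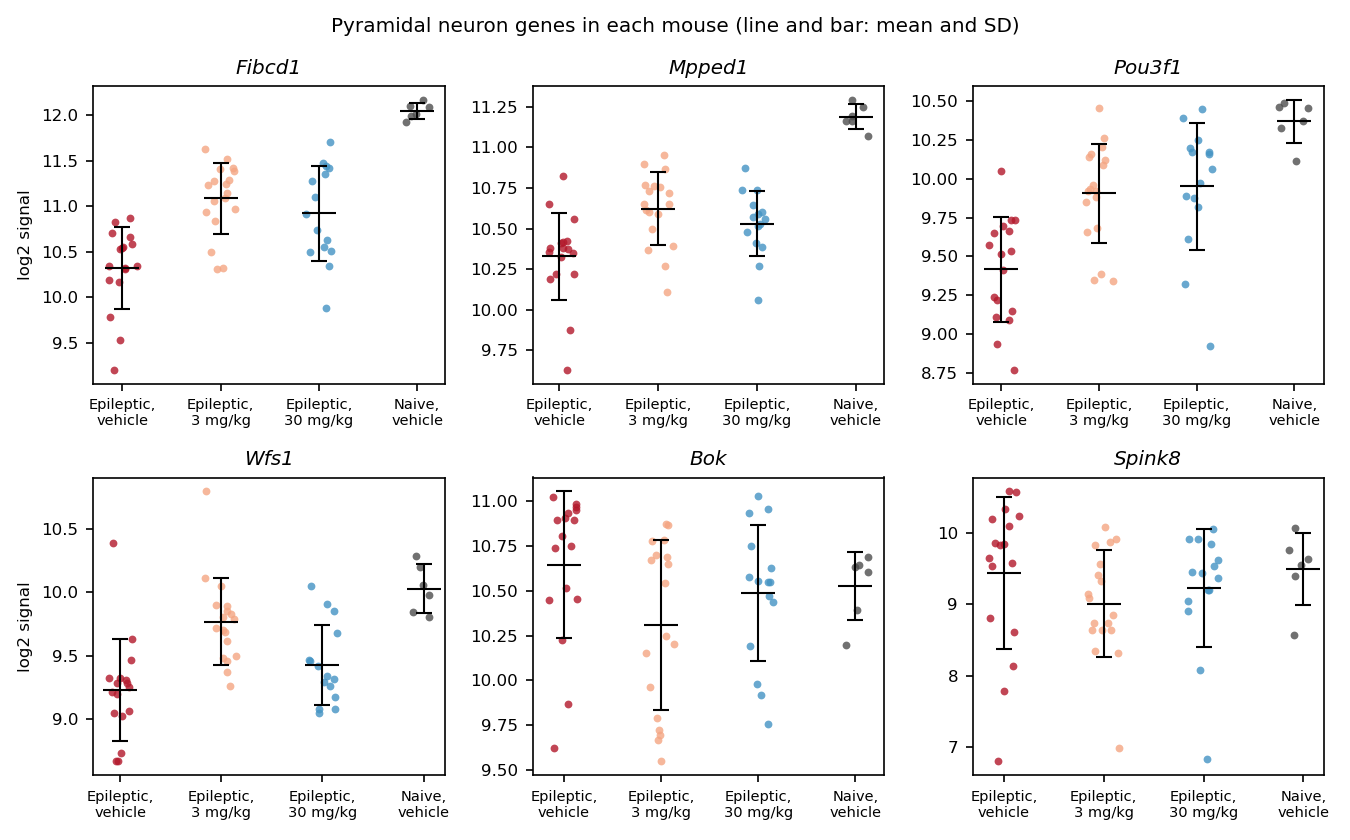
Log2 signal (vertical axis) of the 6 measured genes in every mouse, by group (epileptic vehicle, epileptic 3 mg/kg, epileptic 30 mg/kg, naive); each point is 1 mouse, the long line is the mean and the bars are the SD. Fibcd1 and Mpped1 in all epileptic groups lie below every naive mouse, Wfs1 has 1 high mouse in the epileptic vehicle group and 1 at 3 mg/kg, and Spink8 and Bok in epileptic mice spread to both sides of the naive values.

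The plot of log2 signals by mouse also shows the spread within groups. For Fibcd1 the SD was 0.45 in epileptic vehicle mice, 0.39 on the low dose, 0.52 on the high dose and 0.09 in naive mice. Spink8 had an SD of 1.06, 0.75 and 0.83 in the epileptic groups in the same order and 0.50 in naive mice.

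The sequence upstream of Fibcd1 and Wfs1 is shown because Fibcd1 fell most of the 6 genes in epilepsy and Wfs1 showed the widest gap between the doses; both have an entry in the RefSeq promoter table (build GRCm38.p6), as have 6 of the 8 genes. Each window holds 250 bases before a transcript start, read 5′ to 3′ on the strand of the gene. The Fibcd1 window is chr2:31846006-31846255 on the minus strand and lies inside the annotated span of the gene (chr2:31813290-31846964). The Wfs1 window is chr5:36988983-36989232 on the minus strand, next to the start of the gene (chr5:36966104-36988982). Capitals mark a match to TGACG, the core of the cAMP response element (Fibcd1, on the opposite strand), and a match to the E-box CAGATG (Wfs1, on the opposite strand).
Fibcd1: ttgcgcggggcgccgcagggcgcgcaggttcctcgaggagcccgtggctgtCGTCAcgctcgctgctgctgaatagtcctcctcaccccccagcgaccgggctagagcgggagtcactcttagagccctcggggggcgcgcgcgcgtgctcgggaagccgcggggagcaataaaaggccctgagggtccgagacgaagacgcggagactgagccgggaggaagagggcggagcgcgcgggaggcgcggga
Wfs1: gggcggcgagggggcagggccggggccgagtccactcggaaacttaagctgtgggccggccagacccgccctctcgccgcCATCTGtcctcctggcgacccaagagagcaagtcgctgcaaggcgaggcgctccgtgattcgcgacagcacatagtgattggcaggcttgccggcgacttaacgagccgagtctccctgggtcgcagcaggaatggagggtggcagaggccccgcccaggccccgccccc

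On both strands, TGACG was present in 17.8% of the 32851 promoter windows of this length and CAGATG in 14.4%. The E-box CAGCTG (13% of windows) and ATGCAAA (4.12% of windows), a part of the octamer read by POU factors, were in none of the 7 windows of the members with an entry, and both Mpped1 windows held none of the 4 motifs. G and C made up 71.6% of the Fibcd1 window and 69.6% of the Wfs1 window, beside a median of 52.4% over all windows. These matches describe the letters only.

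Under PLX3397 at 3 mg/kg, 4 of the 6 measured genes were higher than in epileptic vehicle mice (Fibcd1, Wfs1, Pou3f1 and Mpped1) and Bok was lower. Over all genes, 35.5% passed in this comparison, with 18.5% higher and 16.9% lower (limma, adjusted p under 0.05). At 30 mg/kg, 3 of the 6 were higher (Fibcd1, Pou3f1 and Mpped1) and none was lower by this test, where 32% of all genes passed, with 16.3% higher. The median log2 difference over the 6 genes was 0.39 for 3 mg/kg and 0.20 for 30 mg/kg, beside 0.0061 and 0.0040 over all genes. The 17 vehicle mice served in both comparisons, whose values therefore stand side by side and are not independent. With arrays scaled to a common median, the fit called 2939 genes higher and 768 lower on the low dose (1835 and 1676 as fitted here) and 2023 and 818 on the high dose (1614 and 1549 as fitted here).

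Fibcd1 had log2 signals of 10.31, 11.19 and 11.63 (lowest, median and highest) at 3 mg/kg and of 9.88, 10.91 and 11.71 at 30 mg/kg, against 9.20, 10.35 and 10.87 in epileptic vehicle mice. At 3 mg/kg, 14 of 18 mice lay above the highest vehicle mouse, and at 30 mg/kg 8 of 15 did. The log2 difference was 0.77 at 3 mg/kg (SE 0.14, limma adjusted p = 1.73e-05), rank 1 of all 9893 genes in order of increase, and 0.60 at 30 mg/kg (SE 0.15, limma adjusted p = 0.00128), rank 9. Even so, no mouse at either dose reached the lowest naive mouse. Against naive mice Fibcd1 was lower, with a log2 difference of -0.96 at 3 mg/kg (SE 0.20, limma adjusted p = 0.000195) and of -1.12 at 30 mg/kg (SE 0.20, limma adjusted p = 1.92e-05).

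Pou3f1 gave 9.34, 9.93 and 10.46 (lowest, median and highest log2 signal) at 3 mg/kg and 8.93, 10.06 and 10.45 at 30 mg/kg, against 8.77, 9.52 and 10.05 in epileptic vehicle mice. Most mice at either dose lay above the vehicle median, 15 of 18 on the low dose and 13 of 15 on the high. Pou3f1 was higher by 0.49 at 3 mg/kg (SE 0.11, limma adjusted p = 0.000371) and 0.53 at 30 mg/kg (SE 0.12, limma adjusted p = 0.00031). Some dosed mice reached into the naive range, 6 of 18 on the low dose and 7 of 15 on the high. The group means stayed lower than in naive mice, with log2 differences of -0.46 (limma adjusted p = 0.021) at 3 mg/kg and -0.42 (limma adjusted p = 0.0394) at 30 mg/kg, and these calls were lost without some single naive mice: at 3 mg/kg without naive replicate 1 (adjusted p = 0.0517), and at 30 mg/kg without any of naive replicates 1, 2, 3, 5 and 6 (adjusted p 0.0551 to 0.0824).

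Wfs1 gave 9.26, 9.75 and 10.80 (lowest, median and highest log2 signal) at 3 mg/kg and 9.05, 9.34 and 10.05 at 30 mg/kg, against 8.67, 9.25 and 10.38 in epileptic vehicle mice. All 18 mice at 3 mg/kg lay above the vehicle median, whereas 11 of 15 did at 30 mg/kg. Wfs1 was higher by 0.54 at 3 mg/kg (SE 0.11, limma adjusted p = 0.000113) and differed by 0.20 at 30 mg/kg (95% interval -0.04 to 0.44, limma adjusted p = 0.199). Relative to naive mice, Wfs1 at 3 mg/kg differed by -0.26 (95% interval -0.58 to 0.06, limma adjusted p = 0.232; -0.30 with array weights, adjusted p = 0.0396) and at 30 mg/kg was lower, with a log2 difference of -0.60 (SE 0.16, limma adjusted p = 0.00303).

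The highest Wfs1 values of the epileptic vehicle and 3 mg/kg groups came from arrays that stood apart from the rest. Epileptic vehicle replicate 6 and 3 mg/kg replicate 18 had the lowest median correlations with the other arrays (0.968 and 0.970, the next lowest being 0.977), and each had the highest Wfs1 of its group, 10.38 against at most 9.63 in the other vehicle mice and 10.80 against at most 10.11 in the other mice at 3 mg/kg. Nptx2 and Fos, genes induced by neuronal activity that were picked after their values were seen, were also highest there. Nptx2 reached 11.09 in vehicle replicate 6 against a median of 8.50 and at most 9.62 in the other 16 vehicle mice. In 3 mg/kg replicate 18 it reached 12.14 against a median of 8.75 and at most 11.06 in the other 17 mice. Another mouse at 3 mg/kg thus came near the Nptx2 value of vehicle replicate 6. Arc, another such gene, was highest in 3 mg/kg replicate 18 (11.85 against at most 11.23). In vehicle replicate 6 Arc was not highest (9.98 against at most 10.14 in the other vehicle mice). The part of these genes in the Wfs1 values was not tested. Without vehicle replicate 6, the Wfs1 difference at 30 mg/kg was 0.27 (limma adjusted p = 0.0425) and passed the test, and that of Mpped1 at 30 mg/kg was 0.16 (limma adjusted p = 0.0796) and did not. Without both arrays, Wfs1 at 3 mg/kg was higher than in vehicle mice by 0.55 (limma adjusted p = 2.18e-06) and lower than in naive mice, with a log2 difference of -0.32 (limma adjusted p = 0.0451).

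Mpped1 gave 10.11, 10.65 and 10.95 (lowest, median and highest log2 signal) at 3 mg/kg and 10.06, 10.56 and 10.87 at 30 mg/kg, against 9.63, 10.37 and 10.82 in epileptic vehicle mice. The dosed and vehicle ranges overlapped widely, with 3 of 18 mice at 3 mg/kg and 1 of 15 at 30 mg/kg above the highest vehicle mouse. Mpped1 was higher by 0.29 at 3 mg/kg (SE 0.07, limma adjusted p = 0.00115) and 0.20 at 30 mg/kg (SE 0.08, limma adjusted p = 0.0384). The call at 30 mg/kg was lost when the fit held a term for the set of 8 consecutive sample numbers (0.17, adjusted p = 0.136) or for the run of numbers (0.14, adjusted p = 0.215). All dosed mice stayed under the lowest naive mouse, and the difference from naive mice was -0.57 at 3 mg/kg (limma adjusted p = 3.34e-05) and -0.66 at 30 mg/kg (limma adjusted p = 2.54e-06).

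Bok and Spink8, the measured genes that did not pass the test in epilepsy, had lower medians at both doses than in epileptic vehicle mice. The brighter Bok probe had a median of 10.39 at 3 mg/kg and 10.55 at 30 mg/kg, against 10.80 in epileptic vehicle mice. At 3 mg/kg, 16 of 18 mice lay below the vehicle median. The log2 difference was -0.34 (SE 0.13, limma adjusted p = 0.0441) at 3 mg/kg, with -0.25 (limma adjusted p = 0.0177 over all probes) for the dimmer probe, and -0.16 (limma adjusted p = 0.411) at 30 mg/kg. The call for Bok at 3 mg/kg was lost in 6 of 15 alternatives. Among them were median scaling of the arrays (-0.23, limma adjusted p = 0.189) and the fit without 3 mg/kg replicate 18 (adjusted p = 0.0567). It was also lost with no detection filter (adjusted p = 0.0724) and with only the groups compared (adjusted p = 0.0682). For Spink8 the difference was -0.43 at 3 mg/kg (upper 95% bound 0.13, limma adjusted p = 0.243) and -0.21 at 30 mg/kg (95% interval -0.81 to 0.38, limma adjusted p = 0.623).

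**Figure D2:**
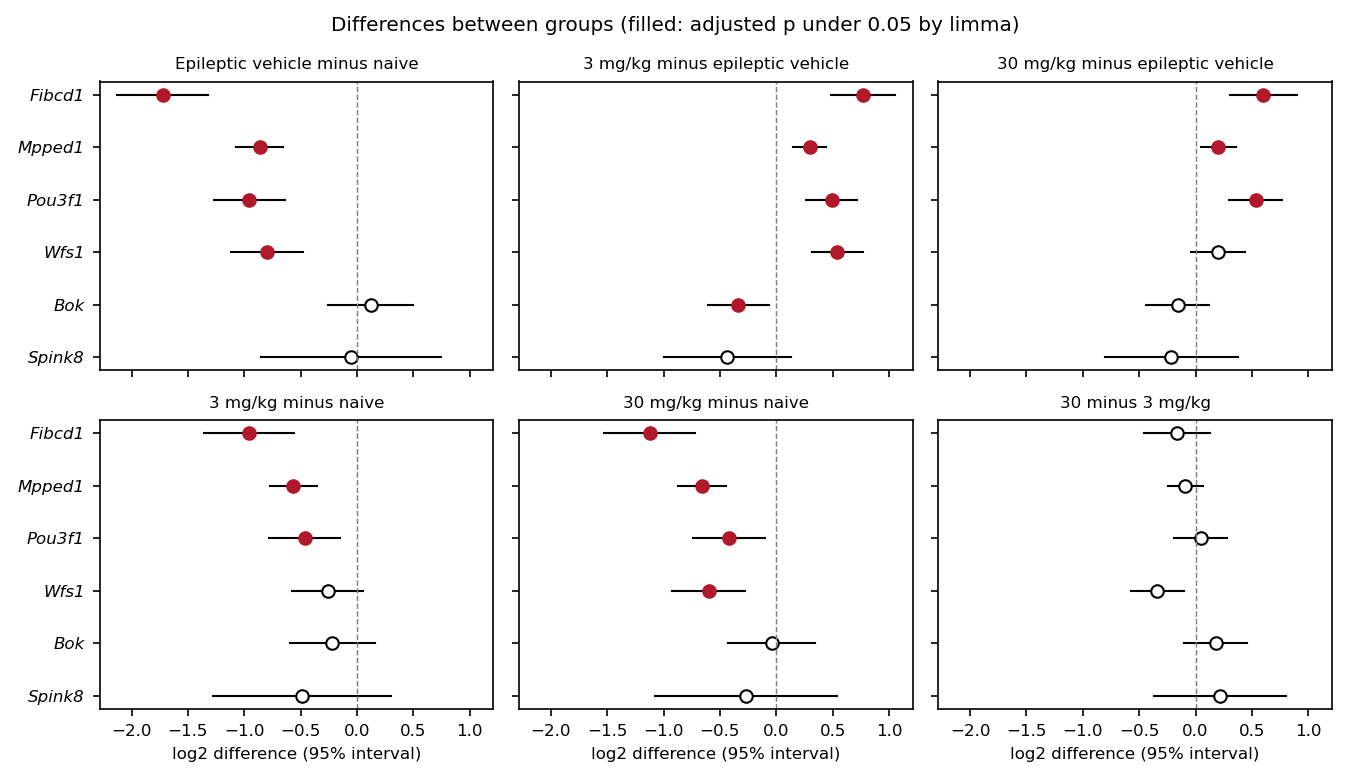
Log2 difference (horizontal axis) with its 95% interval for each measured gene in the 6 comparisons; filled points had a limma adjusted p under 0.05 over 9893 genes. Fibcd1, Mpped1 and Pou3f1 are filled below 0 in the epileptic vehicle panel and in both panels of a dose against naive mice, and above 0 in both panels of a dose against epileptic vehicle mice; Wfs1 is filled at 3 mg/kg against epileptic vehicle mice and open at 30 mg/kg.

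The 2 doses were then compared with each other. None of the 6 genes passed (limma, adjusted p under 0.05), where 2.17% of all genes did (0.92% higher and 1.25% lower at 30 mg/kg, and with median scaling 26 genes higher and 75 lower), and 1 of the 6, Wfs1, had an unadjusted p under 0.05. The Wfs1 difference, 30 minus 3 mg/kg, was -0.34 (95% interval -0.57 to -0.11, limma adjusted p = 0.106). At 30 mg/kg 12 of 15 mice lay below the median of the mice at 3 mg/kg. For Fibcd1 the difference was -0.17 (95% interval -0.46 to 0.13), for Pou3f1 0.04 (-0.19 to 0.28) and for Mpped1 -0.09 (-0.25 to 0.06). Bok gave 0.18 (-0.10 to 0.46) and Spink8 0.22 (-0.37 to 0.81).

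Against naive mice, 3 of the 6 genes were lower at 3 mg/kg (Fibcd1, Mpped1 and Pou3f1), where 26.3% of all genes passed (14.8% lower and 11.5% higher), and 4 of the 6 at 30 mg/kg (the same genes and Wfs1), where 30.7% passed (17.5% lower and 13.1% higher; limma, adjusted p under 0.05). How far each lowered gene lay from the vehicle level towards the naive level was expressed as a position, where 0% is the epileptic vehicle mean and 100% the naive mean on the log2 scale. At 3 mg/kg the positions were 67.4% (SE 15.5) for Wfs1, 51.3% (SE 11.7) for Pou3f1, 44.4% (SE 7.94) for Fibcd1 and 34.2% (SE 8.07) for Mpped1. At 30 mg/kg they were 56% (SE 12.5) for Pou3f1, 34.8% (SE 8.13) for Fibcd1, 24.9% (SE 13.9) for Wfs1 and 23.6% (SE 8.46) for Mpped1. Mpped1 stood lowest at both doses, but the ranges of 1 SE overlapped between neighbours in either order, except for Pou3f1 and Fibcd1 at the high dose. The median position of the 4 genes was 47.9% for 3 mg/kg and 29.9% for 30 mg/kg, beside 41.9% and 36.3% over the 2619 genes that were lower in epileptic vehicle mice. The same vehicle mice enter both ends of a position, so it is a description and has no test. With a term for the set of 8 numbers in the fit, Pou3f1 stood at 37.1% and Fibcd1 at 36.2% at 3 mg/kg.

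**Figure D3:**
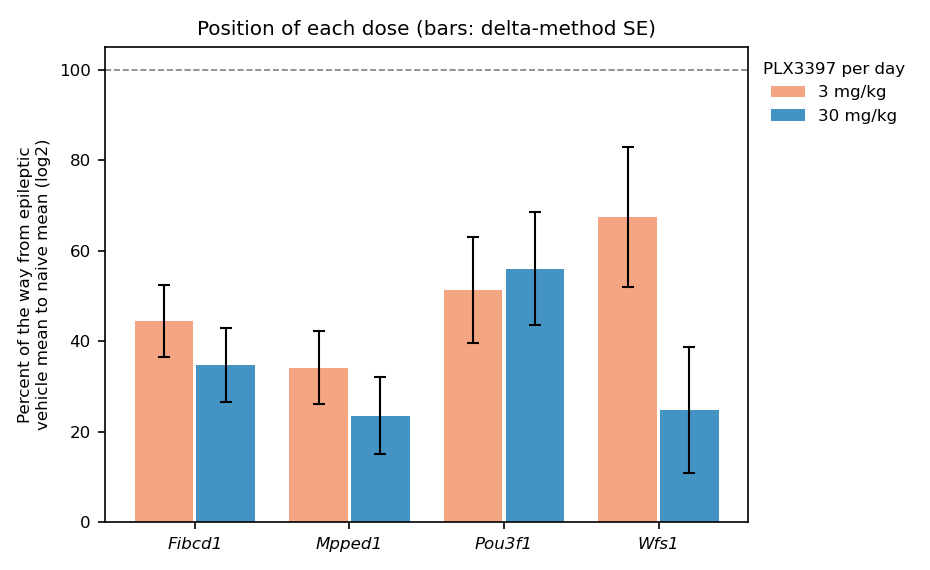
Position of the group mean of each lowered gene between the epileptic vehicle mean (0%) and the naive mean (100%, dashed line), on the log2 scale, at 3 and 30 mg/kg; bars on the columns are the SE by the delta method. All 8 positions lie between 23.6% and 67.4%, and Wfs1 shows the widest gap between doses.

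Samples carry consecutive numbers in the labels, in 2 runs (up to 24 and from 33), which can be cut into 7 sets of 8; the array design holds 8 samples a chip, but the labels do not say which samples shared one. Groups were spread unevenly over the runs: 11 of 17 epileptic vehicle mice, 8 of 18 at 3 mg/kg, 2 of 15 at 30 mg/kg and 3 of 6 naive mice were in the first. Within the 4 sets that held epileptic vehicle and naive mice, Fibcd1, Pou3f1, Mpped1 and Wfs1 were lower in epileptic vehicle mice in all 4. In the 6 sets with mice at 3 mg/kg and vehicle mice, Mpped1 was higher in 6, and Fibcd1, Pou3f1 and Wfs1 in 5 each. At 30 mg/kg, Fibcd1, Pou3f1 and Wfs1 were higher in 5 of 6 sets and Mpped1 in 4 of 6. Many of these differences rest on 1 mouse a group.

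Between doses the sets gave another picture for Fibcd1 than the pooled means. In all 5 sets with both doses Fibcd1 was higher at 30 than at 3 mg/kg, by 0.15 to 0.32, although the pooled difference was -0.17, and with a term for the set it was -0.02 (limma adjusted p = 0.982). Pou3f1 was higher at 30 mg/kg in 5 of 5 sets (0.15 to 0.58), with a blocked difference of 0.18 (limma adjusted p = 0.626). Bok was also higher at 30 mg/kg in 5 of 5 sets (0.04 to 0.46), with a blocked difference of 0.19 (limma adjusted p = 0.696). Wfs1 was lower at 30 mg/kg in 4 of 5 sets, and the blocked difference was -0.31 (limma adjusted p = 0.34).

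The members were next compared with each other between mice of the same group, over the 15 pairs of measured genes in each of the 3 epileptic groups; p-values come from 2-sided permutation tests and were adjusted over the 15 pairs. In epileptic vehicle mice Pou3f1 and Fibcd1 went together (Pearson r = 0.729, permutation p = 6e-04, adjusted p = 0.0045; Spearman rho = 0.775, permutation p = 0.00045, adjusted p = 0.00555), and r was 0.676 without the 2 mice farthest from the Pou3f1 median. At 30 mg/kg the same pair gave r = 0.765 (permutation p = 0.00045, adjusted p = 0.00337) and rho = 0.929 (permutation p = 1e-05, the smallest these resamples can give, adjusted p = 0.00015), with r = 0.915 without the 2 farthest mice. At 3 mg/kg r was 0.526 (permutation p = 0.0241, adjusted p = 0.181) and rho was 0.744 (permutation p = 0.00069, adjusted p = 0.0103). Mice with more Pou3f1 signal thus tended to have more Fibcd1 signal. In the vehicle and 30 mg/kg groups this passed by r and by rho, and at 3 mg/kg by rho only. The difference between groups was not tested.

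Mpped1 went with Pou3f1 at 30 mg/kg, with r = 0.881 (permutation p = 4e-05, adjusted p = 6e-04), rho = 0.793 (permutation p = 0.00067, adjusted p = 0.00502) and r = 0.672 without the 2 farthest mice. There Fibcd1 and Mpped1 also passed (r = 0.681, permutation p = 0.00405, adjusted p = 0.0202; rho = 0.775, permutation p = 0.0011, adjusted p = 0.0055; r = 0.669 without the 2 farthest mice). After removal of the mean of each set of sample numbers, none of the pairs passed at 30 mg/kg: Pou3f1 and Mpped1 gave r = 0.701 (adjusted permutation p = 0.0666) and Pou3f1 and Fibcd1 r = 0.615 (adjusted permutation p = 0.105). At 3 mg/kg Pou3f1 and Mpped1 gave r = 0.629 (permutation p = 0.00512, adjusted p = 0.0768; rho = 0.61, permutation p = 0.00866, adjusted p = 0.0649; r = 0.716 without the 2 farthest mice), and after the same step r = 0.802 (adjusted permutation p = 0.00075). The difference between doses was not tested. In epileptic vehicle mice Pou3f1 and Fibcd1 kept r = 0.732 (adjusted permutation p = 0.0108) after the same step.

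In epileptic vehicle mice Wfs1 ran against Pou3f1 and Fibcd1. It gave r = -0.769 with Pou3f1 (permutation p = 0.00026, adjusted p = 0.0039; rho = -0.723, permutation p = 0.00154, adjusted p = 0.0077; r = -0.759 without the 2 farthest mice) and r = -0.691 with Fibcd1 (permutation p = 0.00294, adjusted p = 0.0147; rho = -0.75, permutation p = 0.00074, adjusted p = 0.00555; r = -0.583 without the 2 farthest mice). In the residuals from the fit of group and set the values were -0.706 (adjusted permutation p = 0.0111) and -0.674 (adjusted permutation p = 0.0197). They depended on the scaling: with arrays scaled to a common median they were -0.431 and -0.523 (adjusted permutation p = 0.226 for both). Without vehicle replicate 6 they were -0.694 (adjusted permutation p = 0.0328) and -0.594 (adjusted permutation p = 0.0778). At 3 mg/kg Pou3f1 and Wfs1 gave r = -0.0872 (adjusted permutation p = 0.843) and at 30 mg/kg r = -0.0262 (adjusted permutation p = 0.93); the difference between groups was not tested. The other 3 pairs with Wfs1 did not pass in epileptic vehicle mice: with Mpped1 r was -0.461 (adjusted permutation p = 0.137; rho = -0.0417) and 0.0699 without vehicle replicate 6, with Spink8 r was -0.422 (adjusted permutation p = 0.137) and with Bok -0.343 (adjusted permutation p = 0.216).

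**Figure D4:**
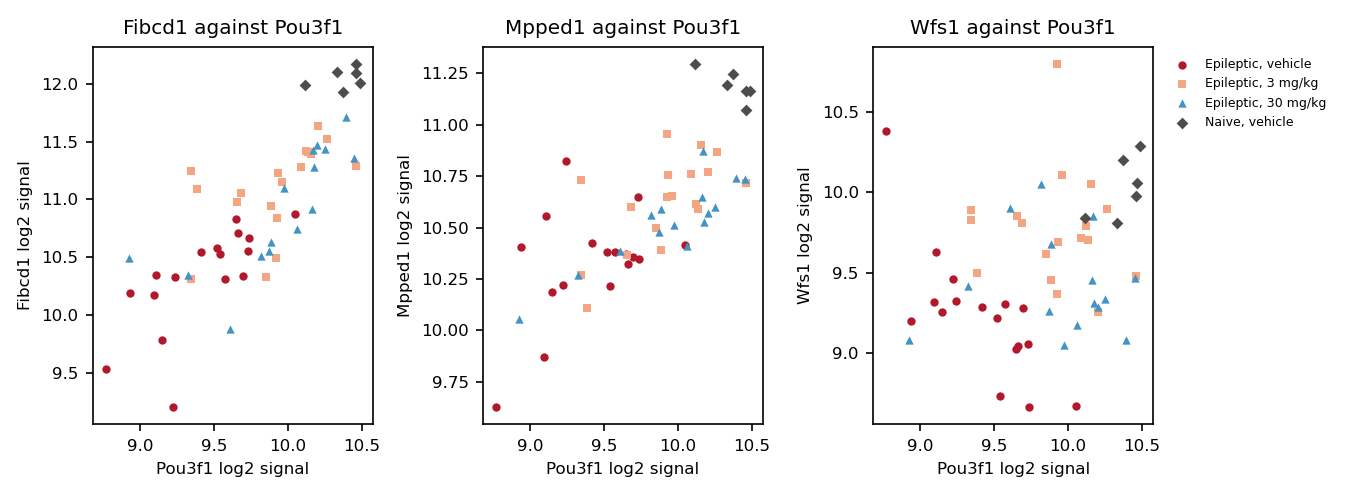
Log2 signal of Fibcd1, Mpped1 and Wfs1 (vertical axes) against that of Pou3f1 (horizontal axes), with 1 point per mouse and 1 colour and shape per group. Fibcd1 and Mpped1 climb with Pou3f1 among mice at 30 mg/kg (r = 0.765 and 0.881), while Wfs1 falls with Pou3f1 among epileptic vehicle mice (r = -0.769), where vehicle replicate 6 has the lowest Pou3f1 and the highest Wfs1.

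Over all 56 mice, after removal of the group means, each gene was set against the mean of the other 5. Pou3f1 gave r = 0.593, Mpped1 0.496, Fibcd1 0.428, Bok 0.242 and Spink8 0.137, while Wfs1 gave -0.442. The genes outside the list whose pattern was most like the mean of the 6 members were Septin6 (r = 0.811), Prkcb (0.785), Lpl (0.783), Trhde (0.769), Pcnx2 (0.763) and B3gat1 (0.753), out of 9887 genes over 56 mice. These coefficients are descriptions of arrays that share their scaling. All 6 genes were lower in epileptic vehicle than in naive mice, where 26.5% of all genes were lower. Prkcb, a protein kinase C isoform, gave a log2 difference of -0.92 (limma adjusted p = 1.07e-09) and Pcnx2 one of -0.65 (limma adjusted p = 8.76e-08). At 30 mg/kg Septin6, a cytoskeletal GTP-binding protein gene, was higher than in epileptic vehicle mice by 0.41 (limma adjusted p = 0.000883) and Lpl by 0.43 (limma adjusted p = 0.0272). Prkcb (0.15, limma adjusted p = 0.178), Pcnx2, Trhde and B3gat1 did not pass there. At 3 mg/kg Septin6 (0.28, limma adjusted p = 0.0145) and Pcnx2 (0.18, limma adjusted p = 0.0311) were higher, and the others did not pass. Among all genes, 18.5% were higher at 3 mg/kg and 16.3% at 30 mg/kg.

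Other genes of hippocampal neurons were read from lists taken beside the members. Of 12 measured genes of CA2 and CA3, 8 were lower in epileptic vehicle than in naive mice and none was higher. The share of all genes lower in that comparison was 26.5%, with 22.6% higher. Relative to vehicle, 3 of the 12 were higher at each dose (up to 6 of them passed under some alternatives). Higher genes made up 18.5% of all genes on the low dose and 16.3% on the high dose. Cpne4, a copine gene, was lower in epilepsy, with a log2 difference of -0.94 (limma adjusted p = 0.00043) and higher at 30 mg/kg by 0.48 (limma adjusted p = 0.0229), with 0.24 at 3 mg/kg (limma adjusted p = 0.268). Nptx1, a neuronal pentraxin, was lower in epilepsy, with a log2 difference of -0.28 (limma adjusted p = 0.000963), higher at 3 mg/kg by 0.14 (limma adjusted p = 0.026) and at 0.08 for 30 mg/kg (limma adjusted p = 0.285). Amigo2, a cell adhesion gene, was lower in epilepsy, with a log2 difference of -0.47 (limma adjusted p = 0.00103), and passed on neither dose (0.18 and 0.22, limma adjusted p = 0.0965 and 0.0588). Dkk3, a secreted glycoprotein of the dickkopf family, was lower in epilepsy, with a log2 difference of -0.46 (limma adjusted p = 0.00151) and higher at 30 mg/kg by 0.34 (limma adjusted p = 0.00348), with 0.21 at 3 mg/kg (limma adjusted p = 0.0604). Of the 3 measured genes of another CA1 list, Cds1, an enzyme of phosphatidylinositol synthesis, was lower in epilepsy, with a log2 difference of -1.01 (limma adjusted p = 1.73e-12) and higher by 0.49 at 3 mg/kg (limma adjusted p = 1.47e-07) and by 0.38 at 30 mg/kg (limma adjusted p = 5.84e-05). The extracellular proteoglycan gene Dcn of that list was higher in epilepsy, by 0.53 (limma adjusted p = 0.00866).

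Among 6 measured genes of excitatory forebrain neurons, 4 were lower in epileptic vehicle mice, among them Tbr1, a transcription factor, with a log2 difference of -0.65 (limma adjusted p = 2.99e-08) and Slc17a7, the vesicular glutamate transporter, with -0.46 (limma adjusted p = 1.14e-05). Relative to vehicle, 4 of the 6 were higher on 3 mg/kg and 2 on 30 mg/kg, beside 18.5% and 16.3% of all genes. Camk2a, a kinase of excitatory synapses named after its values were seen, was the 1 gene lower at both. The granule cell gene C1ql2, a synaptic C1q-like protein, was higher by 1.42 in epileptic vehicle mice, relative to naive mice (limma adjusted p = 1.83e-11), while Prox1, the other measured granule cell gene, gave 0.32 (limma adjusted p = 0.101). Among 8 interneuron genes 4 were lower and 1 was higher in epileptic vehicle mice, relative to naive mice (26.5% and 22.6% of all genes). Relative to vehicle, 4 of the 8 were higher and 1 lower on 3 mg/kg, and 3 were higher and 1 lower on 30 mg/kg, where 1 in all passed with a term for the set or the run of numbers. Slc32a1, the vesicular transporter of inhibitory transmitters, was lower in epilepsy, with a log2 difference of -0.81 (limma adjusted p = 7.41e-12), and higher by 0.49 on the low dose (limma adjusted p = 4.75e-09) and by 0.47 on the high dose (limma adjusted p = 5.75e-08).

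Microglial and astrocyte genes that passed in epilepsy were all higher. Over all genes, 22.6% were higher and 26.5% lower in epileptic vehicle than in naive mice. Relative to vehicle, 18.5% of all genes were higher and 16.9% lower on 3 mg/kg, and 16.3% higher and 15.7% lower on 30 mg/kg. Of 12 measured microglial genes, 11 were higher in epileptic vehicle mice relative to naive mice; relative to vehicle, 8 of the 12 were lower on 3 mg/kg (5 passed with median scaling) and 11 on 30 mg/kg. For these 12 genes the signals were returned from log2 to the linear scale and added in each mouse, so the brightest probes weigh most. The sum ranged from 6680 to 13110 in epileptic vehicle mice, 6215 to 9301 at 3 mg/kg, 4583 to 7573 at 30 mg/kg and 4827 to 5807 in naive mice. Of 10 astrocyte genes, 8 were higher in epileptic vehicle mice relative to naive mice, and 4 of the 10 were lower on each dose relative to vehicle (2 passed under some alternatives). The astrocyte sum, made in the same way, ranged from 34439 to 57598 in epileptic vehicle mice, 33543 to 49769 at 3 mg/kg, 33444 to 46917 at 30 mg/kg and 30594 to 32021 in naive mice. Of 9 measured oligodendrocyte genes, 4 were lower and 1 was higher in epileptic vehicle mice relative to naive mice, and on each dose 1 was higher and 1 lower relative to vehicle. Cldn11, a tight junction gene of myelin, went the way of the lowered pyramidal genes, with a log2 difference of -0.47 in epilepsy (limma adjusted p = 0.00098) and 0.30 on either dose (limma adjusted p = 0.00402 for 3 mg/kg and 0.00778 for 30 mg/kg). The part of these cells in the signals of the pyramidal neuron genes was not tested. Across the 56 arrays the median intensity was 109.2 to 150.8 and 44.3% to 49.8% of probes were detected, with overlapping ranges in the 4 groups.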

How the data were processed

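Hippocampal RNA of 56 mice was hybridised to 1 array each. The authors deposited probe signal intensity, extracted with GenomeStudio 2011.1 with neither background subtraction nor normalisation, and a detection p-value for each intensity. They also deposited log2 values that lumi had quantile normalised (version not given in the sources used here); these matched the intensities normalised here (lowest r 0.99999) and served as an alternative.

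Intensities were log2 transformed and quantile normalised. The detection rule given above left 14058 of 25697 probes, 13265 of them with 1 gene, named through the platform annotation and a RefSeq gene table (GRCm38.p6). Each of the 9893 genes was read by its brightest kept probe. No 2 arrays were copies (highest r 0.9949). Groups came from the titles.

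The 4 groups were fitted in 1 model with limma 3.58.1 in R 4.3.3 (lmFit, contrasts.fit, eBayes, no covariates), with Benjamini-Hochberg adjustment over all genes. A position is 100 times (dose minus epileptic vehicle) over (naive minus epileptic vehicle), from group means, with an SE by the delta method. Pairs of genes were correlated within groups with 100000 permutations. The adjustment covered the 15 pairs of measured genes. The limma fit and the positions were tried on simulated data with independent noise for each gene and no effect of set or run. The correlations were not tried in this way. Alternatives were normexp background correction, the deposited log2 values, median scaling, no filter, a stricter filter (p under 0.01, 28 arrays), averaged probes, array weights, trended robust eBayes, fits restricted to the compared groups, leaving out each naive mouse, and block terms for set, run or replicate number. Leaving out the 2 arrays that stood apart was added after the data were seen. Named genes outside the members were the 6 most correlated with the member mean and at most 4 of each list, by p in epileptic vehicle against naive mice. The members and lists were chosen with earlier results of these data known. The number of arrays limits the precision of each mean.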

Additional observations from a re-analysis of the deposited data

How the results depend on the processing

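Of 612 tests of single genes under alternatives, 19 lost the call, 5 gained it, 6 changed sign and the others did none of these. Fibcd1 and Pou3f1 at both doses, and Wfs1 and Mpped1 at 3 mg/kg, passed against epileptic vehicle mice in every alternative, as did all 4 genes in epileptic vehicle against naive mice. The sign changes were in genes that passed in neither setting: Bok in epileptic vehicle against naive mice (-0.0413 with median scaling), Bok at 30 mg/kg against naive mice (0.0041 with the mean of all probes), and Spink8 in epileptic vehicle against naive mice (0.0949 with the set of 8 as a block, 0.0276 without vehicle replicate 6, the same without both arrays that stood apart, and -0.237 to 0.0606 without 1 naive mouse, the ends being without naive replicates 3 and 6). With the set as a block the median position at 3 mg/kg was 36.7%. Counts of correlated pairs were 1 in epileptic vehicle mice with median scaling and 1 at the low dose without both arrays. In the residuals from the fit of group and set they were 1 at the low dose and 0 at the high dose. The cause of these shifts was not tested.

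Mpped1 at 30 mg/kg against epileptic vehicle mice also lost its call with no detection filter (adjusted p = 0.0605) and with only the groups compared (0.0564). Wfs1 at 30 mg/kg gained one with array weights (0.26, adjusted p = 0.0434), as did Wfs1 at 3 mg/kg against naive mice (-0.302, adjusted p = 0.0396). Calls over all genes between the doses numbered 101 with median scaling, 67 with the set as a block and 368 with array weights. Of 56 mice, 2 correlated best with a mouse of their own replicate number, so the numbers were not taken as pairs. Among 65 same-numbered pairs, 19 had r over 0.1. The median r was 0.0482 for same-numbered pairs and -0.00503 for pairs with other numbers. With the replicate block, the calls over all genes were 4986, 3534 and 3349 in epileptic vehicle against naive mice, 3 mg/kg and 30 mg/kg against epileptic vehicle mice, the members passing were 4, 4 and 3, and the median positions were 44.2% and 32.2%; the only call of a member that it changed was Bok at 3 mg/kg (adjusted p = 0.0606).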
